A study of Mus musculus with 9 samples.

Results

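Microtubule and motor protein genes were taken by symbol from an array study of mouse forebrain. They comprised 60 of the 8251 genes that the platform annotation tied to at least 1 probe set (the short probes that read 1 transcript) under a single symbol. A gene was a member if its symbol began with Kif and a digit, Klc, Dync, Dynl, Dctn, Tuba, Tubb, Tubg or Stmn, or was Mapt, Map1a, Map1b, Map2, Map4, Map6, Mapre1, Mapre3 or Pafah1b1. The 60 genes had 87 probe sets, and each gene was read on the one with the highest mean over the 9 arrays. Of the 60, 52 had a probe set past the filter on low values, a 9-array mean above 3.45 on the log2 scale. Dynlt1b, Kif11, Kif2c, Kif4, Kif9, Tuba8, Tubb2a-ps2 and Tubb4b did not pass it, and Kif11, Kif2c and Kif4 among them encode motors of the mitotic spindle. Another 5 probe sets named for several tubulin or dynein light chain genes at once were left out, and Tuba1b, Tubb2b, Map1a, Kif21a and Dynlt1 had no probe set of their own past the filter.

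Microtubules are hollow polymers of alpha- and beta-tubulin that grow from gamma-tubulin seeds, and in neurons they fill axons and dendrites. Microtubule-associated proteins such as tau and Map2 line and stabilise them, end-binding proteins ride on their growing tips, and stathmins bind free tubulin and favour disassembly. Kinesins carry cargo mostly outward to the synapse, and dynein, helped by dynactin and Lis1, carries it back to the cell body.

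The mice were male C57BL animals listed as 4 weeks old, acclimatised for 2 weeks, housed singly and treated for 4 weeks through their drinking water. One group received clozapine, an atypical antipsychotic, at 12 mg/kg/day, another received haloperidol, a classical antipsychotic, at 1.6 mg/kg/day, and the control group received no drug. Each group had 10 animals, of which 3 per group were selected for arrays, with 1 animal on each array and no pooling. No basis for that selection was given in the sources used here, and the labels name the right side of the brain in the titles and the left hemisphere in the tissue field, so the side is uncertain. Values were GCRMA log2 intensities from the Affymetrix U74Av2 array. Arrays give no read depth, and 3 arrays per group limit the precision: standard errors of treatment differences had a median of 0.153 on the log2 scale. RNA came from bulk tissue, where fewer cells of a type and less RNA per cell cannot be told apart.

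The arrays also differed in the balance of signal along transcripts. Control probe sets read Actb and Gapdh, a pair of abundant transcripts, at their 3' and their 5' ends, and a larger 3' minus 5' gap means that less signal was obtained from the 5' end. The gap, averaged over both transcripts, was 0.892, 1.13 and 1.14 in clozapine 1 to 3, 1.30, 0.868 and 0.814 in haloperidol 1 to 3, and 0.882, 1.46 and 1.73 in control 1 to 3. The 2 largest gaps were both in controls, control 3 and control 2, the arrays farthest from the median, while control 1 was among the lower ones. Whether the gap differed between treatments was not tested. The 3 most similar pairs of arrays each crossed treatments (clozapine 3 with haloperidol 1, clozapine 1 with control 1, clozapine 1 with haloperidol 3). Of the genes listed as markers of forebrain neurons, Snap25 was at 12.8 to 13.3, Gad1 at 12.1 to 12.7, Penk at 11.3 to 11.9 and Neurod6 at 5.61 to 6.41. Of 6 cerebellar markers 3 were past the filter, with Pcp2 at 7.07 to 7.46, while Cbln1 and Gabra6 were below it. The 8 forebrain neuron markers past the filter averaged 8.99 in control 3 and 9.40 to 9.98 in the other 8 arrays, and Camk2a alone ran from 3.87 to 9.42. Pituitary transcripts stood out in haloperidol 3, where Prl was at 11.8 against at most 3.84 elsewhere. The part of these differences in the results below was not tested beyond the values given there.

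Promoter letters are shown for genes toward both ends of the slopes on the gap described further on. They have the 2 steepest negative slopes and the steepest positive slope among members with an entry in the RefSeq table (GRCm38.p6). These are Kif5c, a neuronal kinesin-1 heavy chain (chr2:49619036-49619285, plus strand), Map2, the dendritic microtubule-associated protein (chr1:66175079-66175328, plus strand), and Mapre1, the end-binding protein EB1 (chr2:153741037-153741286, plus strand). Of these slopes only that of Mapre1 passed the test used below, and the other Mapre1 probe sets had negative slopes. Kif5a, which had a steeper negative slope, is not shown. Each line gives the 250 bases before the annotated start, 5' to 3', with capitals for motif matches on either strand. The motifs were the GC box, whose letters are GGGCGG, the TATA box, searched as TATAAA, and the CCAAT box, searched as the letters of its name.
Kif5c: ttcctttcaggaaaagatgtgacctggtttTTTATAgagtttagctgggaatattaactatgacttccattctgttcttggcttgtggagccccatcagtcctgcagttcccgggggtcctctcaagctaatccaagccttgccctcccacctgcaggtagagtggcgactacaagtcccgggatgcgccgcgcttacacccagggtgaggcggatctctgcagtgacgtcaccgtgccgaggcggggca
Map2: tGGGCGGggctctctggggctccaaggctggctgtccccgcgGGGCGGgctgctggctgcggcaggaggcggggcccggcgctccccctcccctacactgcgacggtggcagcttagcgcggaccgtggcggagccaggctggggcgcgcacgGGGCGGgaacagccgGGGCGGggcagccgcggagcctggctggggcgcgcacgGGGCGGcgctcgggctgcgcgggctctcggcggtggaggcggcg
Mapre1: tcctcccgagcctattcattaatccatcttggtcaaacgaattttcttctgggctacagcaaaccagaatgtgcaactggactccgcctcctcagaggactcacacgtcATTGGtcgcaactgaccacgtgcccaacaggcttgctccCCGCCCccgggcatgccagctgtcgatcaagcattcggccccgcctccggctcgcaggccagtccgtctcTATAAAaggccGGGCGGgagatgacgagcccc
Map2 held 5 GC boxes and no TATA or CCAAT box, Mapre1 held 2 GC boxes, 1 TATA box and 1 CCAAT box, and Kif5c held 1 TATA box match far from the start; none of these matches overlapped. A GC box stood in 26 of the 48 promoters that the table lists for 40 members (54.2%) and in 32.7% of all 32851 promoters of that length. A TATA box stood in 4 of the 48 (8.33%, against 12.4%), and a CCAAT box in 18 (37.5%, against 33.8%). These are matches of letters, and the arrays measured no binding.

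Members spanned most of the array's range. The highest 9-array means were those of Tuba1c (12.8) and Tuba1a (12.5), alpha-tubulins, followed by the dynein light chains Dynll2 and Dynll1, Mapt (tau), Stmn1, Klc1 (a kinesin light chain), the beta-tubulins Tubb5 and Tubb2a, and Stmn3 (10.7). The lowest past the filter were Kif20a (3.57) and Kif23 (3.94), kinesins of cell division, then Map1b (4.11), Kif1b (5.04) and Kif16b (5.13). Probe sets differ in how well they bind, so this order describes signal and not transcript number. Over the 9 arrays a member's range had a median of 0.698, against 0.623 for all 7453 probe sets past the filter, and 13 of 52 members (25%) exceeded 1 log2 unit, against 20.9% of all. The widest were Kif5a (4.30), Kif5c (3.98), Map2 (2.97), Kif1a (2.58), Mapre1 (2.25) and Map1b (2.16), 3 of them kinesins that carry vesicles down axons. Control 3 was the lowest of the 9 arrays for 18 of 52 members (against 22.4% of all probe sets), and control 1 the highest for 14 (against 14.5%).

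**Figure D1:**
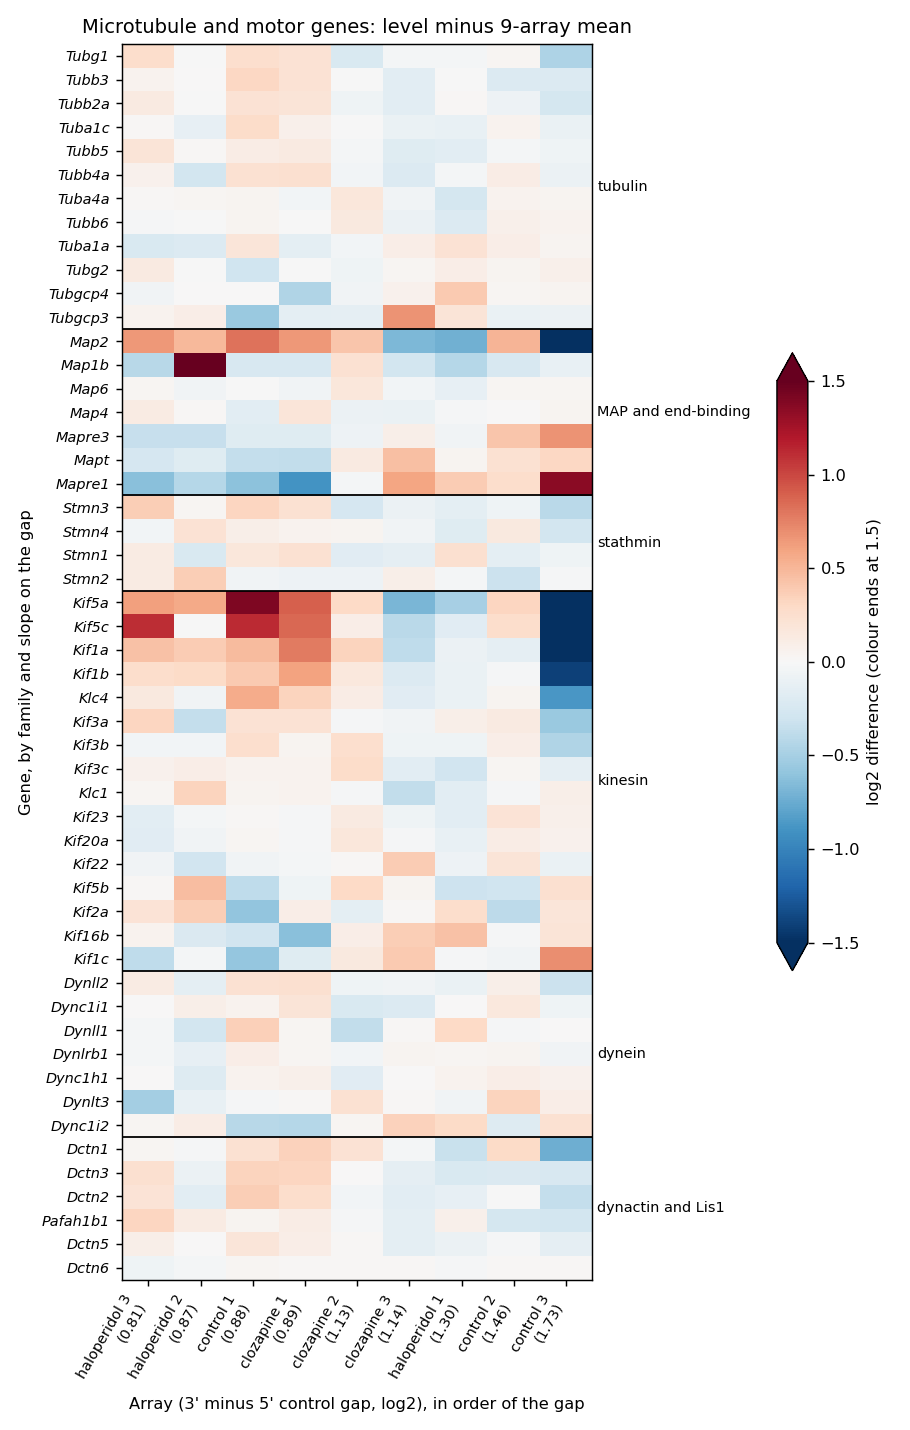
Heat map of the 52 members past the filter (rows, grouped by family and ordered by slope) in the 9 arrays (columns, in order of the 3' to 5' gap, which is given in brackets), with colour for the log2 level minus the gene's 9-array mean. Kif5a, Kif5c, Kif1a, Kif1b and Map2 are lowest in control 3, the array with the largest gap (1.73), where Mapre1 and Mapre3 are highest.

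In clozapine against control, no member passed limma's moderated test at an adjusted p of 0.05 (0 of 52, with a background of 0%, as 0 of 7453 probe sets passed), and none reached an unadjusted p of 0.05 (background 0.939%). The median difference over the members was 0.0296 and that over all probe sets -0.00125. In 31 of 52 members the clozapine mean was the higher one (background 49.5%), but the number was 24 with each array centred on its median and 17 with the gap as a covariate. Centring moved all probe sets alike: their median became -0.0360 and that of the members -0.00507. With the gap as a covariate the medians were 0.000927 over all probe sets and -0.0589 in the members. No member had clozapine and control arrays that did not overlap (0 of 52, background 3.43%).

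Kinesins leaned above control, with 12 of 16 higher in clozapine and a median difference of 0.113; the count was 12 under centring and quantile scaling and 7 with the gap as a covariate, and none passed the test. Kif1a, a motor for synaptic vesicle precursors, had the highest difference. It was at 8.44, 7.99 and 7.27 in clozapine and 8.13, 7.52 and 5.86 in control. Control 3 alone lay below all others, and the difference of 0.73 ± 0.55 (SE) became 0.0717 without it and 0.0729 with the gap as a covariate. Kif1b, its close relative, went from 0.53 to 0.000432 without control 3. Kif2a, a kinesin that depolymerises microtubule ends, differed by 0.26, from 0.0968 without control 1 to 0.484 without control 3. Kif5b, the kinesin-1 heavy chain of most tissues, differed by 0.24, from 0.119 to 0.433 without the same arrays. Lis1 (Pafah1b1) differed by 0.15, or 0.0237 with the gap as a covariate.

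Tubgcp3, a subunit of the gamma-tubulin complex that seeds new microtubules, was at 5.67, 5.68 and 6.49 in clozapine and 5.25, 5.71 and 5.72 in control. Clozapine 3 alone lay above the controls, and the difference of 0.38 ± 0.23 fell to 0.112 without it. The members with the lowest p below control were Mapre3 (EB3, the neuronal end-binding protein, -0.36), Dynll1 (-0.22), Tubgcp4 (-0.17), Tuba1a (-0.14), Dync1i1 (a dynein intermediate chain, -0.12) and Dync1h1 (the dynein heavy chain, -0.10). Without clozapine 1, Tubgcp4 was at -0.0149 and Tuba1a at -0.0798, and without clozapine 2, Dynll1 was at -0.0963, Dync1i1 at -0.0469 and Dync1h1 at -0.0345. Mapre3 moved to -0.174 without control 3 and was -0.0860 with the gap in the model. Of 7 dynein genes, 5 were lower in clozapine, with a median of -0.0530, and of 12 tubulin genes 7 were lower, with a median of -0.0275. The lowest adjusted p of a member in this comparison was 0.99997.

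In haloperidol against control again no member passed (0 of 52, background 0%), and 4 of 52 reached an unadjusted p of 0.05 in limma's test (7.69%, background 9.12%). The median difference was 0.0105, against -0.0185 for all probe sets, and 27 of 52 members were higher in haloperidol (background 46.4%), 23 under centring and 14 with the gap as a covariate. Under centring the medians were -0.0368 in the members and -0.0658 over all probe sets. With the gap as a covariate they were -0.120 and -0.0551. Arrays of both groups did not overlap for 10 of 52 members (19.2%, background 21.7%): 3 were above control (5.77%, background 2.29%) and 7 below (13.5%, background 19.4%). Both total shares were below those of all probe sets. The haloperidol and clozapine comparisons share the control arrays.

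Kif2a was at 8.54, 8.64 and 8.49 in haloperidol and at 7.68, 7.89 and 8.46 in control. All haloperidol arrays lay above all controls, control 3 coming within a few hundredths of the lowest. The group means were 8.56 ± 0.0784 and 8.01 ± 0.401 (SD, n = 3 each), a difference of 0.55 ± 0.19 (SE), or 1.46-fold, with an adjusted p of 0.530. In clozapine it lay between them, at 8.27 ± 0.125.

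Lis1, whose loss disturbs neuronal migration, was at 10.43, 10.48 and 10.68 in haloperidol and 10.40, 10.09 and 10.08 in control. The groups were apart by a narrow margin at haloperidol 1 and control 1. The difference was 0.34 ± 0.12, or 1.27-fold (adjusted p 0.530), and it was 0.188 with the gap as a covariate.

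Mapre3 was at 7.79, 7.49 and 7.497 in haloperidol and 7.66, 8.26 and 8.52 in control. Control 1 lay among the haloperidol values and the other controls above them. The difference was -0.56 ± 0.21, with an adjusted p of 0.530. It was -0.371 without control 3 and -0.230 with the gap in the model, and the gene's other probe set gave 0.0660.

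Dynlt3, a dynein light chain, was at 6.79, 6.73 and 6.33 in haloperidol and 6.83, 7.17 and 6.94 in control, so that the groups did not overlap but came close. The difference was -0.36 ± 0.15 (adjusted p 0.530), and it was -0.217 without haloperidol 3, the array that also carried pituitary transcripts. Its probe set carries the suffix r, which marks probes chosen under relaxed rules.

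Among the other haloperidol values, Tubgcp3 (0.36, or 0.204 without control 1) and Kif2a with Lis1 made up the 3 members wholly above control. Stmn2, the neuronal stathmin also called SCG10, differed by 0.28 (0.175 without haloperidol 2), and Dync1i2 by 0.27 (0.126 without control 1). Kif1a differed by 0.73, which became 0.0752 without control 3 and -0.0524 with the gap in the model. The 7 members wholly below control were Dctn6, Dync1h1, Dynlt3, Kif20a, Kif23, Tuba4a and Tubb6, with differences from -0.36 for Dynlt3 to -0.06 for Dctn6. Kif23 (-0.21) and Kif20a (-0.18) serve cytokinesis and sat near the filter, and under quantile scaling Kif23 went to -0.0934 and Kif20a to -0.0573. Tuba1a (-0.18, or -0.106 without haloperidol 3) and Tubb6 (-0.13, or -0.0665 without haloperidol 1) completed the 6 lowest p below control. Of 7 dynein genes 6 were lower, with a median of -0.0726, and of 5 dynactin genes and Lis1, 4 were lower. All 4 stathmins were nominally higher, with a median of 0.0986, but 3 were so under centring.

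**Figure D2:**
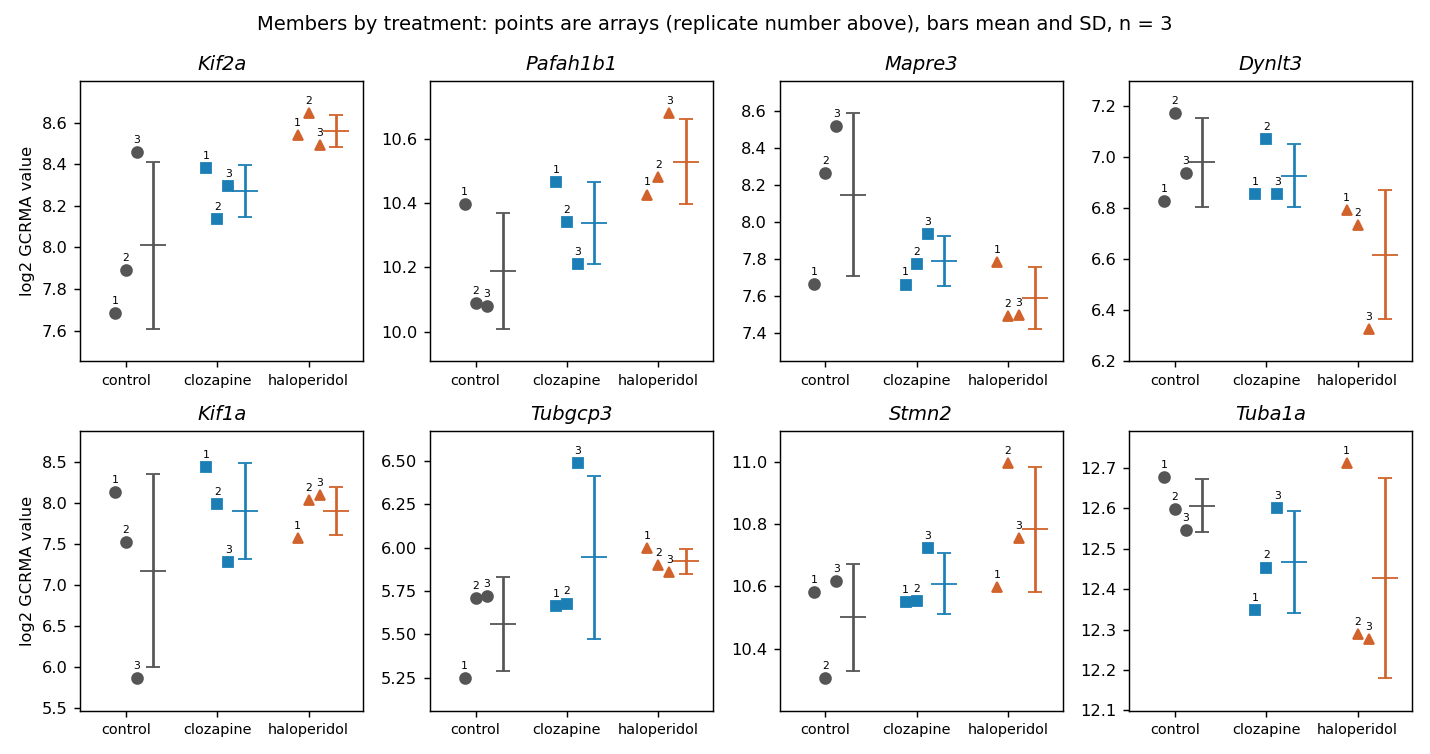
Log2 GCRMA values of 8 members by treatment, with 1 point per array (replicate number above it) and the mean and SD beside each group (n = 3). Haloperidol arrays lie above all controls for Kif2a, Pafah1b1 and Tubgcp3 and below them for Dynlt3, and control 3 (5.86) sets the control mean of Kif1a.

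Clozapine against haloperidol gave no member past the test (0 of 52, background 0%) and none at an unadjusted p of 0.05 (background 3.64%). The median difference was 0.0268, against 0.0258 for all probe sets, with 29 of 52 members higher in clozapine (background 56.4%). Arrays were apart for 5 of 52 (9.62%, background 17.1%): Dctn6, Dynlt3, Kif20a and Kif22 were higher in clozapine (7.69%, background 15.2%) and Kif2a lower (1.92%, background 1.96%). Dynlt3 was at 6.85, 7.07 and 6.86 in clozapine against 6.79, 6.73 and 6.33 in haloperidol, a difference of 0.31 ± 0.15 with an adjusted p of 0.915. Without haloperidol 3 it was 0.164. Kif22, a chromosome-associated kinesin, differed by 0.26, Dctn1, the large dynactin subunit that grips the microtubule, by 0.29, Kif20a by 0.16, Kif23 by 0.13 and Tubb6 by 0.09. Under quantile scaling Kif20a was at 0.0393 and Kif23 at 0.0208, and single arrays moved Kif22 to 0.129 (without clozapine 3), Dctn1 to 0.170 (without haloperidol 1) and Tubb6 to 0.0282 (without clozapine 2). In the other direction were Kif2a (-0.29), Tubgcp4 (-0.26), Lis1 (-0.19), Klc1 (-0.18), Stmn2 (-0.17) and Dync1i1 (-0.11). Without haloperidol 2, Klc1 was at -0.0472 and Stmn2 at -0.0673. Without clozapine 1 Tubgcp4 was at -0.107, without clozapine 2 Dync1i1 was at -0.0338, and without haloperidol 3 Lis1 was at -0.114. A moderated F test over the 3 treatments also called no member (0 of 52, background 0%), and none reached an unadjusted p of 0.05 (background 3.37%).

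Map6 and Dctn6 had narrow ranges over the 9 arrays. Map6, a protein that protects microtubules from cold, ran from 7.85 to 8.13, and Dctn6, a dynactin pointed-end subunit, from 8.64 to 8.74. Tau differed by 0.0132 between clozapine and control and by -0.193 between haloperidol and control. Tubb3, the neuronal beta-tubulin, differed by 0.0521 and 0.0554, and Tubb4a, abundant in oligodendrocytes, by -0.0937 and -0.166. Tubb5 and Tubb2a differed by less than 0.1 in both. For Stmn1, Stmn3, Map4, Kif3a and Klc1 the difference from control farthest from 0 was -0.146, for Klc1 in clozapine. Map1b, a protein of growing axons, was at 5.84 in haloperidol 2 and between 3.68 and 4.33 in the other 8 arrays.

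The relation to the 3' to 5' gap was measured as a slope within treatments, in log2 units of the gene per log2 unit of the gap. Here 6 of 52 members passed (11.5%, background 7.14%, 532 of 7453). Levels fell with a larger gap for Stmn3, Kif5a and Kif1a (3 of 52, 5.77%, background 4.39%) and rose for Mapre3, Mapre1 and Kif1c (5.77%, background 2.75%). At an unadjusted p of 0.05 there were 23 of 52 (44.2%, background 29.4%), of which 17 were negative (32.7%, background 18.5%) and 6 positive (11.5%, background 10.9%). With centred arrays 11 members passed (21.2%, against 10.7% of all probe sets), 4 positive and 7 negative. In all, 33 of 52 slopes were negative (63.5%, background 48.2%; 27 under centring) and 19 positive (36.5%, background 51.8%). The median slope was -0.187 in the members and 0.0162 over all probe sets. With each array centred on its median these were -0.0117 and 0.192, so the scaling moved the zero point of all slopes by more than 0.1. Members were read on each gene's brightest probe set, but the background held every probe set past the filter, dim ones included. With the filter at the 60th percentile the median slope was -0.194 in 47 members and -0.0796 over 4969 probe sets. Under that filter 21.3% of members and 15.1% of all probe sets passed.

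The kinesins at the negative end move cargo along axons. Kif5a, the neuronal kinesin-1 heavy chain altered in some hereditary motor neuron diseases, was at 9.04, 7.96 and 4.74 in control 1 to 3, at 8.54, 7.94 and 6.96 in clozapine 1 to 3, and at 7.14, 8.21 and 8.26 in haloperidol 1 to 3. In each treatment its highest array was one with a gap under 0.9 and its lowest the array with the largest gap. The slope was -4.0035 ± 0.87 (SE), with an adjusted p of 0.0437, and -2.37 (adjusted p 0.187) without control 3. A probe set of Kif5a at lower signal had a slope of -0.55 ± 0.20, which did not pass.

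Kif5c was at 7.51, 6.65 and 3.52 in control, 7.24, 6.49 and 5.97 in clozapine, and 6.21, 6.37 and 7.49 in haloperidol. Control 3 lay more than 2 log2 units below the next array, but the slope of -3.58 ± 0.91 missed the threshold at an adjusted p of 0.0546. Kif5b, the family member not restricted to neurons, had a slope of 0.227 and was at 8.88, 8.96 and 9.50 in control. Control 3 was thus the highest control for Kif5b and the lowest for both neuronal heavy chains.

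Kif1a had a slope of -2.16 ± 0.51 (adjusted p 0.0483), which was -1.34 (adjusted p 0.239) without control 3. Kif1b, at -1.66 (adjusted p 0.0507), and the light chain Klc4, at -1.25 (0.0507), stood just outside the threshold. Kif1c, a motor of the same kinesin-3 family with a wide tissue distribution, ran the other way. It was at 6.52, 7.04 and 7.79 in control, 6.92, 7.25 and 7.49 in clozapine, and 7.08, 7.07 and 6.71 in haloperidol. Its slope was 1.20 ± 0.27 (adjusted p 0.0475), and 0.841 (0.241) without control 3. Over the 16 kinesins, 9 slopes were negative and 7 positive, with a median of -0.281.

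All 4 stathmin slopes were negative, 3 of them under centring. Stmn3, a stathmin of neurons, passed at -0.88 ± 0.19 (adjusted p 0.0425). It was at 11.01, 10.62 and 10.27 in control, 10.91, 10.43 and 10.59 in clozapine, and 10.54, 10.71 and 11.05 in haloperidol. These values spanned less than 1 log2 unit. A dimmer Stmn3 probe set had a slope of 0.0401.

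The end-binding genes Mapre1 and Mapre3 rose with the gap on the probe sets used. Their other probe sets had slopes of -0.0220 and -0.65 for Mapre1 and -0.73 for Mapre3. Mapre1 was at 7.74, 8.63 and 9.72 in control, 7.47, 8.33 and 8.95 in clozapine, and 8.74, 7.94 and 7.74 in haloperidol. Control 3 was the highest array and clozapine 1 the lowest. The slope was 2.34 ± 0.39 (adjusted p 0.0308). Mapre3 had a slope of 0.90 ± 0.14 (adjusted p 0.0282), and without control 3 both kept the sign at 2.10 and 0.84 but did not pass (adjusted p 0.187 and 0.180). Tau had 0.90 ± 0.25, with an adjusted p of 0.0644.

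Map2, which is enriched in dendrites, had a slope opposite in sign to that of tau on the probe sets used. Neither slope passed, and the other tau probe sets had slopes of -0.47 and 1.49. Map2 was at 7.63, 7.31 and 4.66 in control, 7.46, 7.23 and 6.14 in clozapine, and 6.09, 7.30 and 7.47 in haloperidol. Control 3 was thus the lowest by more than 1 log2 unit. Its slope of -2.999 ± 0.77 missed the threshold (adjusted p 0.0554). Map4, the microtubule-associated protein of many tissues, and Map6 had slopes of 0.0364 and -0.0101.

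**Figure D3:**
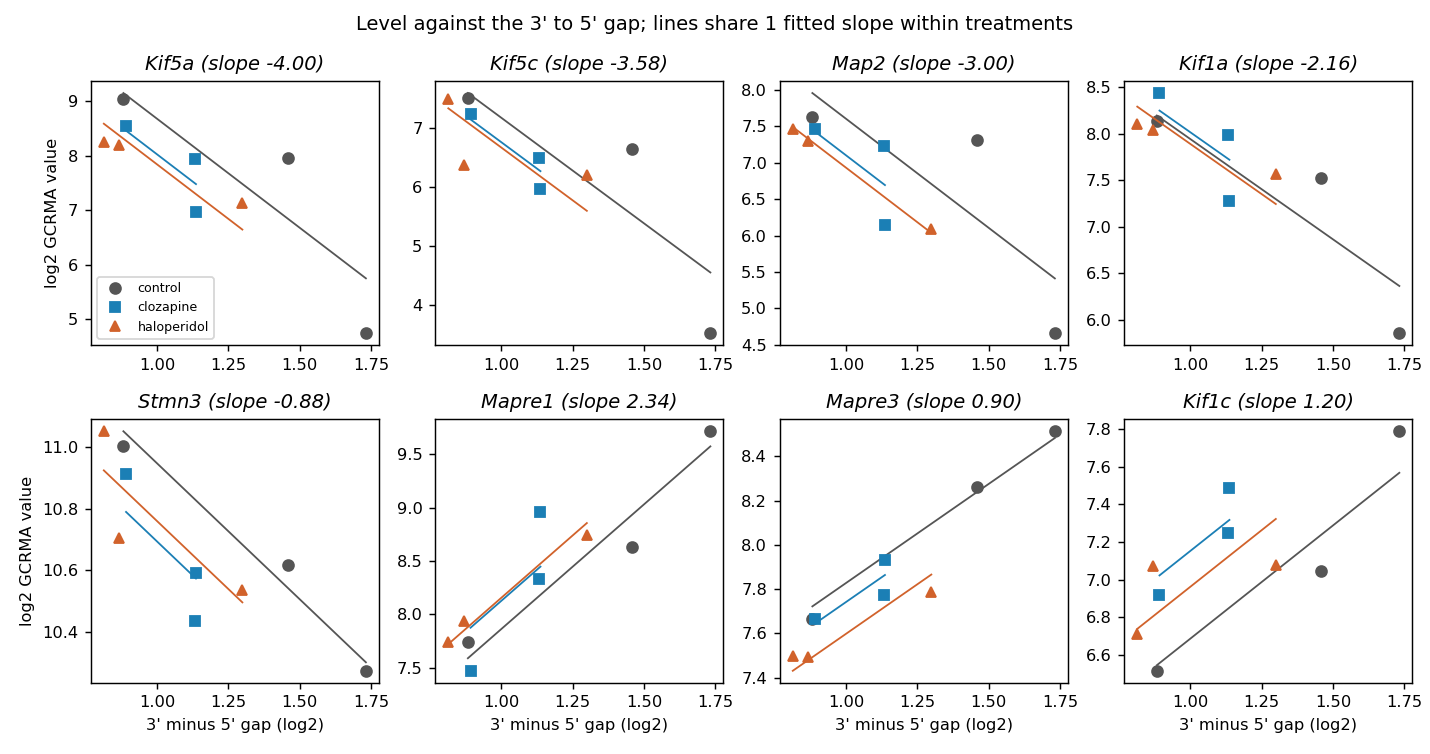
Log2 GCRMA level (vertical) against the 3' minus 5' gap (horizontal, log2) of 8 members in the 9 arrays, with marker and colour for the treatment and lines for the slope fitted within treatments. Kif5a, Kif5c, Map2, Kif1a and Stmn3 decline along the gap and Mapre1, Mapre3 and Kif1c climb, and control 3, at a gap of 1.73, is the lowest point in the former panels and the highest in the latter.

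Of the dynactin genes and Lis1, 5 of 6 were negative under the deposited scaling, centring and quantile scaling, with a median of -0.586, and none passed; these genes belong to the retrograde machinery. Dctn1 was at -0.90, Dctn3 at -0.78 (adjusted p 0.0505), Dctn2, the subunit called dynamitin, at -0.76 (0.0584), Lis1 at -0.42 and Dctn5 at -0.38. Dctn6 was flat at 0.00389. Of 7 dynein genes, 4 were negative, 2 under centring, with a median of -0.0737. Dync1i2 was the most positive (0.77, adjusted p 0.0908) and Dynll2 the most negative (-0.54). Of 12 tubulin genes, 8 were negative (6 under centring) and none passed, with Tubg1 (gamma-tubulin) at -0.72 (adjusted p 0.0665), Tubb3 at -0.55, Tubb2a at -0.50 and Tuba1a at 0.18.

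**Figure D4:**
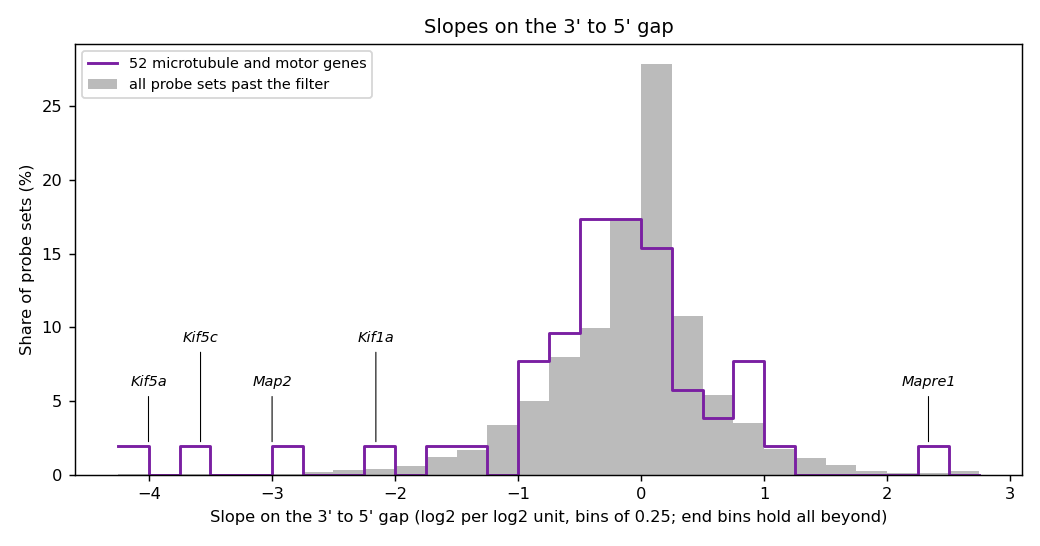
Distribution of slopes on the 3' to 5' gap (horizontal, log2 per log2 unit) for all 7453 probe sets past the filter (grey bars) and the 52 members (purple line), as a share of each set. The members' median is -0.187 and that of all probe sets 0.0162; Kif5a (-4.0035), Kif5c (-3.58) and Map2 (-2.999) lie at the low end and Mapre1 (2.34) at the high end.

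The slope calls depended on single arrays. No member was called without control 1, control 3, clozapine 1, clozapine 2 or haloperidol 3, and at most 3 of all 7453 probe sets were called in those refits. There were 2 without clozapine 3 and 4 without haloperidol 1 (3.06% and 3.62% of all probe sets). Without control 2 there were 11 (12.7% of all), and without haloperidol 2 there were 12 (15.5% of all), so the counts moved with those over the whole array. The 6 called slopes kept their sign in each of these 9 refits.

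Pooled over treatments, Pearson's r and Spearman's rho with the gap were computed for all 7453 probe sets with exact two-sided permutation tests. After Benjamini-Hochberg adjustment 0 of 52 members passed on r (background 0%) and 0 on rho (background 0%), while 18 (34.6%, background 25.9%) and 16 (30.8%, background 19.6%) reached an unadjusted exact p of 0.05. The strongest were Mapre3 (r = 0.950, rho = 0.950, exact p = 0.000143 and 0.000353, adjusted 0.0582 and 0.105) and Mapre1 (r = 0.912, rho = 0.817, exact p = 0.00101 and 0.0108, adjusted 0.0642 and 0.143). On the negative side was Kif1a (r = -0.879, rho = -0.800, exact p = 0.00240 and 0.0138, adjusted 0.0729 and 0.150). Without the 2 arrays farthest from the median gap, r was 0.799, 0.872 and -0.737 for these 3 genes, with exact p of 0.0298, 0.0159 and 0.0603 over 7 arrays and adjusted values of 0.320, 0.291 and 0.379.

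The 9 arrays' own median profile over the 52 members, each taken as the level minus the gene's mean, ran from -0.0667 in control 3 to 0.0558 in clozapine 1. Members most like it, by Pearson's r over 9 arrays as a description, were Dctn5 (0.918), Dctn2 (0.902), Dynll2 (0.885), Map2 (0.875) and Tubb5 (0.859). Least like it were Dync1i2 (-0.901), Mapre1 (-0.850), Kif1c (-0.820), Kif16b (-0.798) and Mapt (-0.740). On the probe sets used, some members moved in opposite directions over the same arrays. The profile was taken from these same members and no background share was computed, so the ranking only describes the list.

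Different probe sets of 1 gene often disagreed. Of 15 members with at least 2 probe sets past the filter, the slope had opposite signs within 9, against 49.2% of 903 genes on the whole array. The same held for 7 of 15 in clozapine against control (51.1% of all such genes), 10 of 15 in haloperidol against control (49.5%) and 6 of 15 in clozapine against haloperidol (47.0%). Tau had 3 probe sets with slopes of 0.90, -0.47 and 1.49. Mapre1 had slopes of 2.34, -0.0220 and -0.65, and Mapre3 0.90 and -0.73, so the positive calls of the end-binding proteins rested on 1 probe set each. Kif1b had -1.66 and 0.0778, Tubb3 -0.55 and 0.54, Dctn2 -0.76 and 0.0558, and Dynll2 -0.54 and 0.25. Kif5a, Klc1, Tubb5, Stmn2, Dynlrb1 and Tubgcp4 kept 1 sign.

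Klc1 and Tubb5 each had a dimmer probe set that passed where the brighter one did not. The Klc1 one was at 7.06, 5.87 and 4.56 in control, 6.05, 5.52 and 5.36 in clozapine, and 5.78, 6.71 and 6.49 in haloperidol, with a slope of -2.51 ± 0.31 (adjusted p 0.0278), against -0.23 for the brightest probe set. The Tubb5 one had -1.33 ± 0.23 (adjusted p 0.0314), against -0.37. These were named after their values were seen. Of the 60 probe sets used, 8 carry the suffix f, which marks probes shared within a gene family, 5 the suffix r, 1 i and 1 s. Tubulins hold most of the family probes, so the signals of Tuba1c, Tubb2a, Tubb3, Tubb5, Tubb6 and Tubg2 may include close relatives. The probe sets used for Mapre3, which had a called slope, and Dynll1 also carry f, so the same limit holds for them. The suffix s belongs to the probe set of Kif5a, another called slope.

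**Figure D5:**
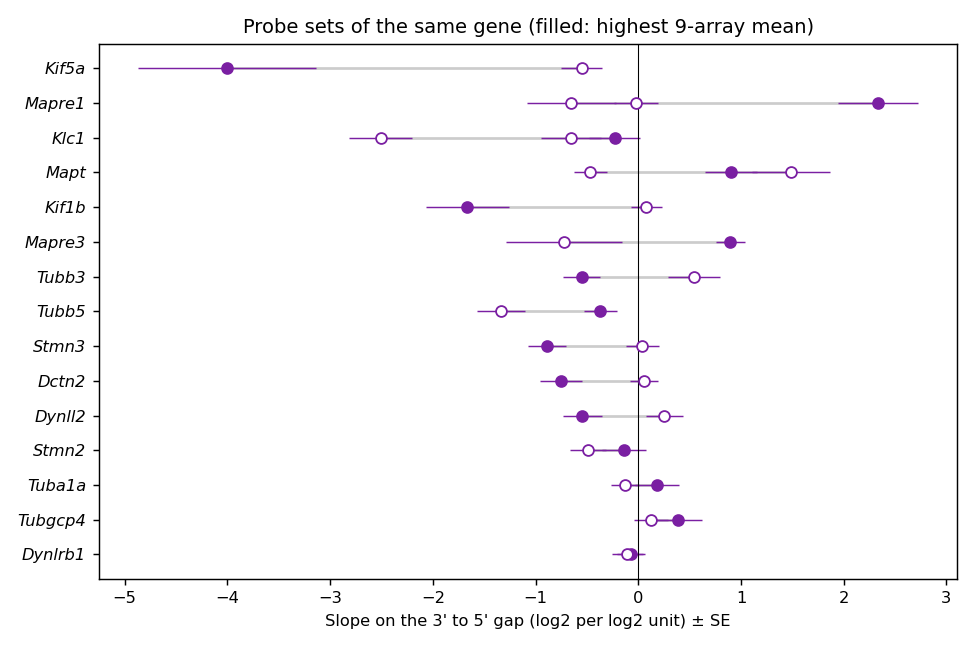
Slopes on the 3' to 5' gap with their standard errors for each probe set of the 15 members that had at least 2 past the filter; filled points mark the probe set with the highest 9-array mean, used for the gene elsewhere. Mapre1, Mapre3, Mapt and Tubb3 straddle 0, and Klc1 spans -2.51 to -0.23.

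Other genes of the microtubule and cytoskeleton pathways were followed through lists of tubulin folding cofactors (14 genes past the filter), tubulin modification and severing enzymes (3), other microtubule-binding proteins (15), motor adaptors and regulators (19), kinases and phosphatases of tau and its relatives (17), intermediate filaments (6) and the actin cytoskeleton (25). None of these genes passed in any treatment comparison. On the gap slope, 1 folding cofactor rose and 3 fell, 1 other microtubule-binding gene rose, 2 motor adaptors fell, 1 kinase or phosphatase rose and 2 fell, 2 actin genes fell, and none of the modification enzymes or intermediate filament genes passed. Over all probe sets, 2.75% rose and 4.39% fell. The lowest p in haloperidol against control belonged to Mapk8ip1, the cargo adaptor JIP1 that binds kinesin-1. It was at 9.01, 8.83 and 8.90 in haloperidol and 9.35, 9.54 and 9.16 in control, a difference of -0.44 ± 0.11 with an adjusted p of 0.530. Next was Myo5a, the actin motor myosin Va, at 0.47 ± 0.12 (adjusted p 0.530). In clozapine against control they were Trak2, which links kinesin to mitochondria (0.57 ± 0.28, adjusted p 0.99997), and Numa1, a spindle-pole protein that binds dynein (-0.16 ± 0.08, adjusted p 0.99997). On the slope they were Clip4, a relative of the microtubule plus-end linkers (1.38 ± 0.24, adjusted p 0.0314), and Cct7, a subunit of the chaperonin that folds tubulin and actin (-0.90 ± 0.16, adjusted p 0.0344).

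Marker lists of other cell types also differed between arrays. As mean levels, the 5 microglia markers past the filter were at 7.70 in control 3 and 7.92 to 8.20 in the other 8 arrays. The 6 immature neuron markers ranged from 5.12 to 6.08 in control, 5.19 to 5.87 in clozapine and 5.65 to 6.18 in haloperidol, with a median slope of 1.03 and 1 marker past the test. The 7 oligodendrocyte markers ranged from 8.79 to 9.25 in control, 8.96 to 9.26 in clozapine and 8.91 to 9.11 in haloperidol, with control 3 the lowest array at 8.79. The 6 astrocyte markers ran the other way, at 9.27 in control 3 and 8.93 to 9.14 in the other 8 arrays. On the slope, 1 marker each rose past the test in the immature neuron and endothelium lists. In the microglia, oligodendrocyte and forebrain neuron lists 1 marker each fell past it, and none passed in the remaining marker lists. Over all probe sets, 2.75% rose and 4.39% fell. The part of these lists in the members' slopes was not tested.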

How the data were processed

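Affymetrix U74Av2 arrays of 9 mouse forebrains were analysed. The deposited values are log2 intensities; the submitters' processing notes name GCRMA, the authors' step of background correction, normalization and summary per probe set. Version and settings are not given in the sources used here, and scanner files were not used. The table held 12488 probe sets, 66 of them controls; 10833 had 1 gene symbol in the platform annotation, 396 several and 1193 none. Probe sets with a 9-array mean above the 40th percentile (7453) were fitted in limma 3.58.1 (R 4.3.3) with lmFit and eBayes on all 9 arrays, 1 mean per treatment, and Benjamini-Hochberg adjustment over all of them; the gap was added as a covariate for slopes. SEs are limma's. Replicate arrays are separate animals.

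Members and lists were chosen with earlier results of these data known. Named genes were, in each contrast, the 6 with the lowest p in each direction, the 6 steepest by p for slopes, the highest and lowest levels, a fixed set of well-known members, and members whose probe sets disagreed. Alternatives were no filter or the 60th percentile, a floor at 4, centred or quantile-scaled arrays, other probe set choices, array weights, the gap as a covariate and each array left out. The scripts were tested on simulated data.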

Additional observations from a re-analysis of the deposited data

How the results depend on the processing

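No member was called in any treatment comparison under any alternative run (limma; 0, 4 and 0 of 52 at an unadjusted p of 0.05 in clozapine against control, haloperidol against control and clozapine against haloperidol). The members' median difference in clozapine against control (0.0296) was -0.0286 with array weights and -0.0589 with the gap as a covariate, and ran from -0.0652 to 0.0700 with 1 array left out. In haloperidol against control (0.0105) it was -0.0478 and -0.120, and from -0.0739 to 0.0715. In clozapine against haloperidol (0.0268) it ran from -0.0394 to 0.0577. The 6 slope calls (7.14% of all probe sets called) became 11 with centred arrays (10.7% of all). There were 10 with the 60th percentile filter (15.1%) and 10 with the gap alone in the model (11.5%). With no filter there were 2 (1.55%), and with a floor at 4 there was 1 (0.59%). The Gapdh gap alone gave 0 (0% of all), as did leaving out the 2 arrays farthest from the median gap (0%). With 1 array left out there were 0 to 12 (0% to 15.5% of all). The correlation with the gap called 1 of 47 members with the 60th percentile filter, against 82 of all 4969 probe sets. With special suffixes left out, Mapre3 is read on its other probe set and reversed, at 0.0660 in haloperidol against control and -0.726 for the slope. The median slope ran from -0.306 to -0.165 with 1 array left out. The cause of these changes was not tested.

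With the replicate block, the slope was called for 0 of 52 members and 0 of all 7453 probe sets. Animals share only a number in the titles: deviations correlated from -0.597 to 0.697 and exceeded 0.1 in 3 of 9 pairs, so the numbers were not taken as pairs. With 3 arrays a group, no difference of any size was called in a treatment comparison (0 of 7453 probe sets in each). Those of the members reached up to 0.798.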

Other observations

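Some probe sets varied between arrays of the same treatment. Map1b, a microtubule-associated protein of growing axons, was at 5.84 in haloperidol 2 and at 4.40 ± 1.24 over that group, with clozapine at 4.01 ± 0.282 and control at 3.91 ± 0.0722 (SD, n = 3 each). The dimmest Mapre1 probe set was at 4.03 in haloperidol 2 and 4.39 in haloperidol 3 and between 3.15 and 3.70 in the other 7 arrays. Its difference between haloperidol and control was 0.56 ± 0.29 (SE) and did not pass (limma, adjusted p 0.568). Kif16b, an endosomal kinesin, was lowest in clozapine 1 (4.50) and highest in haloperidol 1 (5.57), with a slope of 0.90 on the 3' to 5' gap that did not pass (limma, adjusted p 0.119). The 17 member probe sets below the filter lay between 1.01 and 3.66, and none exceeded its highest control array by more than 0.216.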
